A study of Drosophila melanogaster with 8 samples.

Results

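The cuticle protein genes of Drosophila melanogaster were followed in RNA from larval eye discs of 4 fly stocks. A gene was taken as a member where its FlyBase identifier matched a symbol that starts with Cpr and a digit, Lcp, Ccp84A, Twdl or Pcp, and where its reads summed to 20 or more over the 8 libraries. Of 121 genes with such names among the 15682 identifiers in the tables, 70 were members. They comprised 44 Cpr, 13 Lcp, 9 Twdl and 3 Ccp84A genes, and Pcp. The member TwdlU is annotated as a pseudogene, as are Lcp1Psi and Lcp65APsi, which were no members. The other 51 had fewer reads, and 8 of those had none. Members were thus chosen by their summed count, which is given here as a description. Just inside the threshold lay Ccp84Ad with 23 reads, Cpr62Bb with 22 and Cpr47Eg with 21, and just outside it lay TwdlG and Lcp65Ag3 with 19 each and Ccp84Af with 18.

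Discs were taken from third-instar larvae kept at 25 °C, and 30 to 50 discs were pooled for each sample. The stocks were labelled mir-11 KO(w-), called mir-11 KO here, RMCE-1 and RMCE-2, which both concern the region of mir-11 and mir-998, and the wild-type strain Canton S. Each had 2 libraries, labelled as biological replicates. The abbreviation is commonly used for recombinase-mediated cassette exchange. The sources used here do not give what was placed in RMCE-1 and RMCE-2, the sex of the larvae or other differences in background, so strain background and the labelled alleles cannot be told apart. The design text sets the wild type against unchecked miR-998 without naming the stock that has it.

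Insect cuticle is a layered coat of chitin fibres and proteins that the epithelium secretes on its apical side, and it is shed and rebuilt at every moult under the control of ecdysone pulses. Most Cpr proteins carry the Rebers and Riddiford domain, which binds chitin, and the Lcp (larval cuticle protein) and Ccp84A genes belong to the same large family under older names. Tweedle (Twdl) proteins form a separate family of cuticle proteins that affect body shape. Pcp, the pupal cuticle protein gene, is known for its place inside an intron of the purine synthesis gene Gart. Imaginal discs secrete pupal and then adult cuticle, while the larval epidermis makes the larval coat.

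Total counts per library ran from 11929158 to 19670470. The 14 markers of the eye-antennal disc, among them ey, toy, so, eya, hth and Dll, all passed the filter on low counts and summed to between 2143 and 2525 CPM (CPM, reads relative to the scaled total of the library). Transcripts of other tissues were present too. The 12 muscle markers summed to 6935 to 10538 CPM, above the disc marker sum in every library. The largest parts were sls and bt, at means of 2435 and 1973 CPM over the 8 libraries. Such sums of different genes are not scaled to exon length, so they do not give how much RNA came from each tissue. Other tissues stood apart in some libraries. The 7 fat body markers summed to 8438 CPM in RMCE-1 replicate 2, against 64.4 to 2055 CPM elsewhere. The 6 salivary gland markers summed to 3951 CPM in that library, against 2.85 to 1532 CPM elsewhere. The 9 gut markers reached 601 CPM in Canton S replicate 1, against 2.12 to 13.9 CPM in the other libraries. For the cuticle genes a different library stood apart, Canton S replicate 2. It held the highest level of 17 of the 52 members that passed the filter (32.7%), compared with 15% of all 11068 genes that passed. RMCE-2 replicate 1 followed, with 12 of the 52 (23.1%) against 13.6% of all genes. In bulk samples, fewer cells of a type and less RNA per cell cannot be told apart.

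A few genes carried most of the cuticle transcript. Cpr49Ac alone made up 34.2% of the members' summed level, and with Lcp4, Cpr12A, Pcp and Lcp1 the share was 69.9%. Averaged over the 8 libraries, 2 members stood at 100 CPM or more, 12 at 10 to 100 CPM, 26 at 1 to 10 CPM and 30 below 1 CPM. Per kilobase of annotated exon, the scale on which genes can be compared with each other, the order changed at the top. Lcp4 then led with 186 CPM per kb, followed by Cpr49Ac with 178, Pcp with 123, Cpr12A with 105 and Lcp65Ac with 83.3 CPM per kb. The lead of Lcp4 rests on Canton S replicate 2, which held 52.2% of its summed level. Without that library, a choice made after the data were seen, Cpr49Ac led with 170.2 CPM per kb, followed by Pcp with 115, Cpr12A with 104 and Lcp4 with 102. The 5 leading genes by summed CPM, named above, then held 68.3%.

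Summed over its 44 members, the Cpr family stood at 445 and 539.8 CPM for mir-11 KO, 689 and 577 for RMCE-1, 719.9 and 1000.2 for RMCE-2, and 674 and 842 for Canton S. Both mir-11 KO libraries were below every other library. Without Cpr49Ac the Cpr sums lay between 260.0 and 358 CPM, and those of mir-11 KO, at 286 and 286 CPM, were inside the range of the rest. The Lcp family summed to 86.5 and 97.5 CPM for mir-11 KO, 366 and 55.1 for RMCE-1, 312 and 348 for RMCE-2, and 101 and 975 for Canton S. The Lcp sums of replicates were far apart in RMCE-1 and in Canton S and close in the other stocks. In mir-11 KO the close sums hid opposite shifts. There Lcp1 to Lcp4 summed to 13.3 and 54.4 CPM, and Lcp65Ac stood at 65.6 and 35.8 CPM. The 9 Twdl genes summed to 21.2 to 66.7 CPM, and the 3 Ccp84A genes to 0.343 to 2.3 CPM. With 2 libraries a stock, an exact two-sided permutation test cannot go below p = 0.333, so no family sum was tested between stocks.

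**Figure D1:**
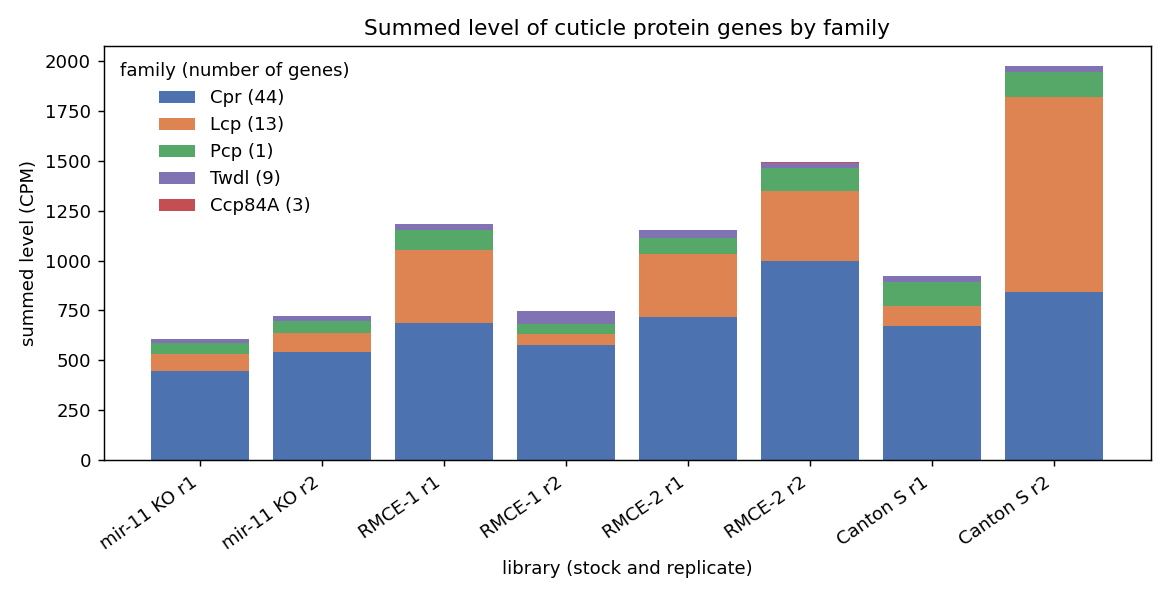
Stacked bars give the summed level (CPM) of the members of each family in each of the 8 libraries, with the number of genes per family in the legend. The Lcp part ranges from 55.1 CPM in RMCE-1 replicate 2 to 975 CPM in Canton S replicate 2, while the Cpr part ranges from 445 to 1000.2 CPM.

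The largest swings in CPM among the Lcp genes were in the neighbours Lcp1 and Lcp4, which with Lcp2 and Lcp3 encode the main larval cuticle proteins and lie side by side on arm 2R, from 8430115 to 8438495 (BDGP6.54, Ensembl 115). Lcp4 stood at 6.42 and 32.6 CPM for mir-11 KO, 175 and 20.9 for RMCE-1, 137 and 161 for RMCE-2, and 28.6 and 615 for Canton S. Lcp1 stood at 6.26 and 18.7 CPM for mir-11 KO, 104 and 7.12 for RMCE-1, 118 and 122 for RMCE-2, and 6.96 and 162 for Canton S. Both genes were high in RMCE-1 replicate 1, both RMCE-2 libraries and Canton S replicate 2, and low in the other 4. Lcp2 had the same pattern at a lower level, from 0.588 CPM in mir-11 KO replicate 1 to 28 CPM in Canton S replicate 2. Lcp2 made up between 8.59% and 14.7% of the reads of Lcp1 and Lcp2 together in every library. The replicates of mir-11 KO differed 5.07-fold for Lcp4 and 2.98-fold for Lcp1, and those of RMCE-1 differed 8.39-fold and 14.7-fold. Those of RMCE-2 differed 1.18-fold and 1.03-fold, and those of Canton S differed 21.5-fold and 23.3-fold.

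Lcp3 did not follow its neighbours. It had 1 and 2 reads in mir-11 KO, none in either RMCE-1 library, 1 and 0 for RMCE-2, and 2 and 278 for Canton S. In RMCE-1 replicate 1 it made up 0 of 2737 reads of Lcp3 and Lcp4 together (exact 95% interval 0 to 0.135%). In RMCE-2 replicate 2 it made up 0 of 2894 (0 to 0.127%). In Canton S replicate 2 it made up 2.37% of such reads (exact 95% interval 2.1 to 2.66%). These intervals cover counting error only. Of the 4 libraries with high Lcp4, a single one thus had more than 1 read of Lcp3. Lcp3 did not pass the filter on low counts, and no fold change is given for it.

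Lcp65Ab1 and Lcp65Ab2, near-identical copies that may share reads, are likewise larval cuticle protein genes. Lcp65Ab1 stood at 0.16 and 0.475 CPM for mir-11 KO, 13 and 0.257 for RMCE-1, 0.997 and 1.79 for RMCE-2, and 0.197 and 26.5 for Canton S. Lcp65Ab2 ranged from 0.16 to 27 CPM, with its high values in the same libraries. Both copies were high in RMCE-1 replicate 1 and Canton S replicate 2 but low in RMCE-2, where Lcp1 was high. As a share of the reads of the Lcp65Ab copies and Lcp1, they made up 20.3% in RMCE-1 replicate 1 (exact 95% interval 18.6 to 22.1%), 1.35% and 3.02% in RMCE-2, and 24.8% in Canton S replicate 2 (23.5 to 26.2%). Lcp9, another gene of the Lcp family, stood at 2.67 and 2.61 CPM for mir-11 KO, 12.4 and 1.03 for RMCE-1, 4.76 and 8.31 for RMCE-2, and 6.27 and 31.2 for Canton S.

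**Figure D2:**
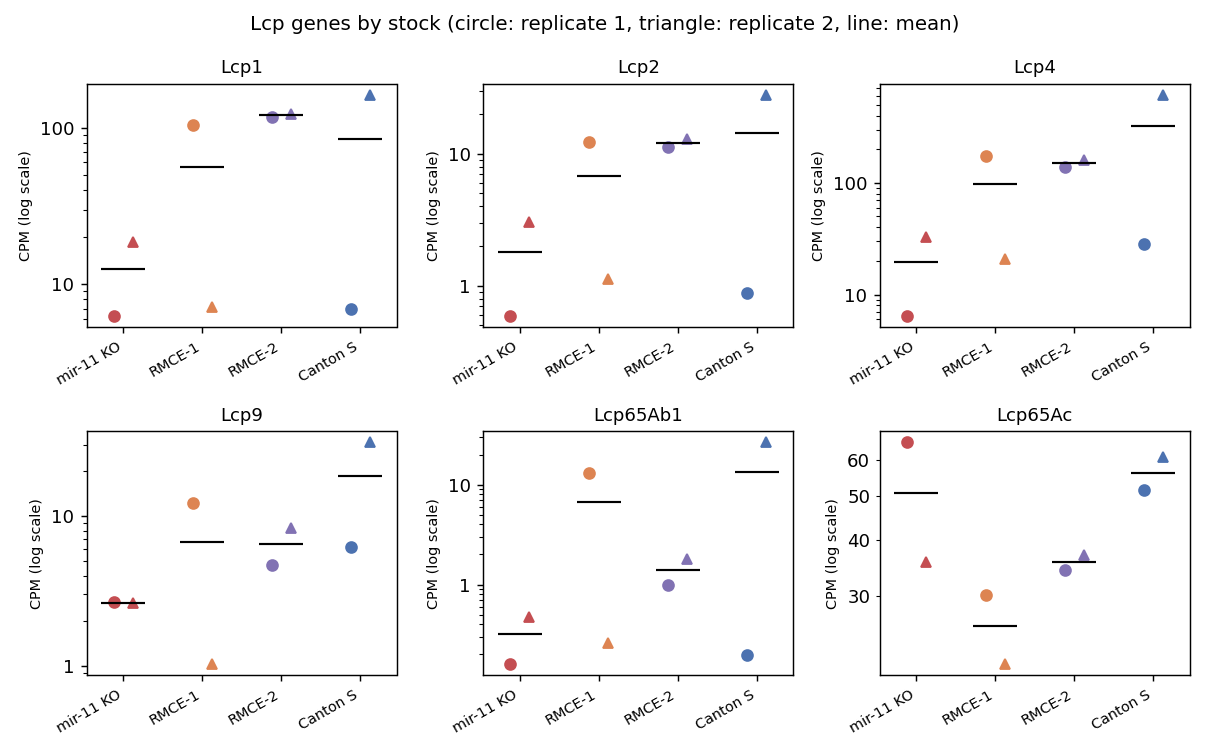
Points give the level (CPM, log axes that differ between panels) of 6 Lcp genes in each library, circles for replicate 1 and triangles for replicate 2, and lines give the mean of each stock. Lcp1, Lcp2 and Lcp4 are high in both RMCE-2 libraries and in 1 library each of RMCE-1 and Canton S, and Lcp65Ac spans 3.08-fold over all libraries.

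Beside the Lcp genes, a few Cpr genes were found mainly in Canton S replicate 2. Over 50% of the level summed over the 8 libraries lay in that library for 7 members, namely Lcp3, Cpr76Bc, Cpr67Fa2, Lcp65Ab1, Cpr65Aw, Lcp65Ab2 and Lcp4, and no other library held over 50% of any member. Cpr67Fa2, which has a near-identical neighbour and may share reads with it, had 90 of its 125 reads there, and Cpr76Bc had 31 of 42. Lcp3 had 278 of its 284 reads there, and Cpr65Aw had 19 of 28. Without that library, Lcp3, Cpr76Bc and Cpr65Aw fall below the summed count required of members. Their place among the 7 thus follows in part from how members were chosen. The matching share of all genes is not given here. Vajk2 and Vajk3, cuticle protein genes of another family and no members, were high in the libraries in which Lcp1 was high. Vajk2 stood at 3.96 and 7.07 CPM for mir-11 KO, 41.7 and 5.75 for RMCE-1, 28.4 and 30.6 for RMCE-2, and 5.13 and 72.9 for Canton S. Vajk3 ranged from 1.28 to 49.3 CPM. Vajk1 and Vajk4 did not follow Lcp1. Vajk4 was lowest in Canton S replicate 2, at 2.31 CPM against 2.41 to 4.6 CPM elsewhere. Vajk1 ran from 0.167 CPM in RMCE-2 replicate 2 to 2.06 CPM in RMCE-1 replicate 2. None of the fat body, salivary gland or gut sums was highest in Canton S replicate 2. The hemocyte sum was, at 679 CPM against 263 to 476 CPM in the other libraries. So was the tracheal sum (743 against 459 to 656 CPM), of which the single gene uif made up 720.8 CPM in that library. The sum of the 6 cuticle tanning genes was highest there too (247 against 82.5 to 220.4 CPM). The lists of cuticle gene regulators (4328 against 2860.2 to 4309 CPM), zona pellucida matrix genes (2611 against 2015 to 2547 CPM) and other cuticle proteins (131 against 9.42 to 81.7 CPM) were also highest there, the first by a narrow margin. The last sum was mostly Vajk2 and Vajk3, at 72.9 and 49.3 CPM in that library. The part of these lists in the Lcp levels was not tested.

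**Figure D3:**
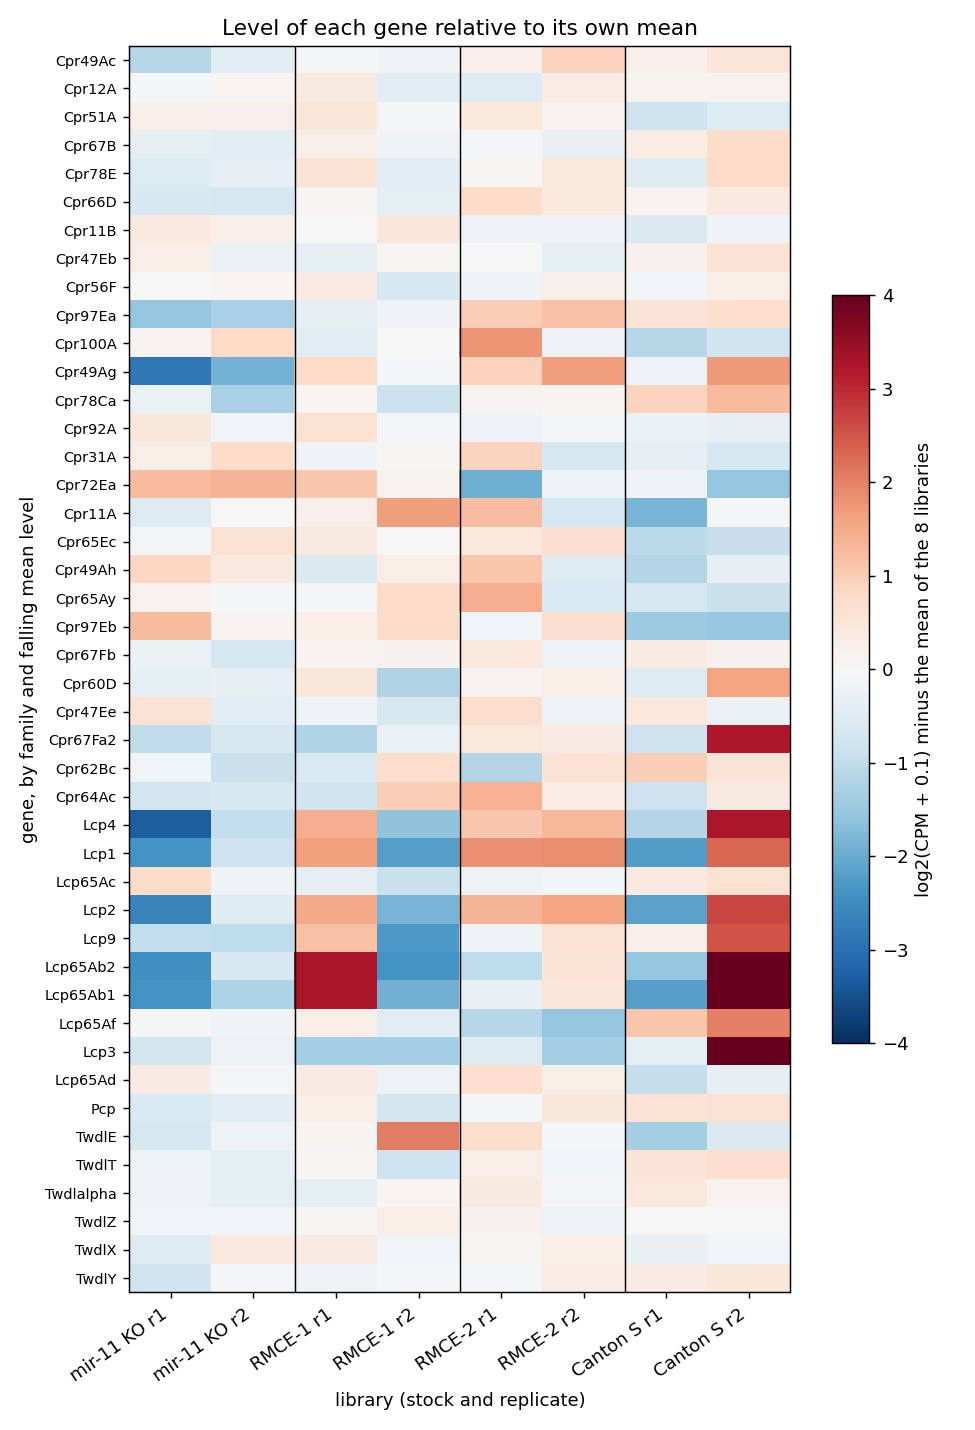
Colours give log2(CPM + 0.1) of each gene minus its mean over the 8 libraries, for the 44 members with a mean of at least 1 CPM in any stock, ordered by family and level. Colours saturate at 4. The strongest reds are Lcp genes and Cpr67Fa2 in Canton S replicate 2 and the Lcp65Ab copies in RMCE-1 replicate 1, while most Cpr and Twdl genes stay pale.

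Replicates differed more for cuticle genes than for genes at large, though the sets were not matched for level. Counting noise weighs more on genes with few reads, and its part in these differences was not tested. Among genes with a mean of at least 1 CPM, the median absolute log2 difference between replicates was 0.43 for the 39 members and 0.09 for all genes in mir-11 KO, 0.68 and 0.16 for RMCE-1, 0.40 and 0.14 for RMCE-2, and 0.36 and 0.11 for Canton S. Differences over 4-fold were seen for 2, 6, 2 and 7 of the 39 members in these stocks, against 1.08%, 2%, 1.45% and 1.16% of all 10071 genes. The median biological coefficient of variation was 33.7% over the 52 members tested and 13% over all genes tested. This spread limits what the comparisons between stocks can show.

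Stocks were compared with edgeR's quasi-likelihood test over all genes, and "called" means a Benjamini-Hochberg adjusted p under 0.05. Of the 70 members, 18 did not pass the filter and were not tested, 17 of them with 21 to 55 reads in all. In mir-11 KO 4 members differed from Canton S, where 4.75% of all genes were called. Of these members 1 was higher (2.37% of all genes) and 3 were lower (2.39%). In RMCE-1 2 members differed from Canton S (6.06% of all genes), 1 higher (2.85%) and 1 lower (3.22%). In RMCE-2 a single member was called, 1 lower than in Canton S (1.6% of all genes, 3.6% in both directions). Against mir-11 KO, 1 member was higher in RMCE-1 (0.208% of all genes, 0.352% in both directions) and 2 were higher in RMCE-2 (0.334% and 0.578%). RMCE-2 against RMCE-1 gave 1 higher member (0.94% and 1.68%).

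In the same order of 6 comparisons, the members called were 7.69%, 3.85%, 1.92%, 1.92%, 3.85% and 1.92% of those tested, which is 1 to 4 genes each. With DESeq2 as the test they numbered 11, 6, 5, 2, 4 and 2, where it called 5.11%, 6.13%, 4.35%, 0.968%, 1.7% and 2.79% of 14982 genes. Where a fold change of at least 2 was also required of edgeR's calls, they numbered 2, 0, 1, 1, 2 and 1, against 1.75%, 2.05%, 1.49%, 0.244%, 0.307% and 0.714% of all genes. The comparisons share stocks, and the 3 against Canton S share its libraries, so they do not support each other. The 11 calls fell on 6 members, 5 Cpr genes and Lcp65Af.

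Cpr97Ea, a Cpr gene on arm 3R (27083130 to 27087778, minus strand, BDGP6.54), was called in 5 of the 6 comparisons. Its level was 2.41 and 2.85 CPM for mir-11 KO, 5.71 and 6.43 for RMCE-1, 14.5 and 16.3 for RMCE-2, and 10.4 and 11.7 for Canton S. No stocks overlapped, and the rising order was mir-11 KO, RMCE-1, Canton S, RMCE-2. It fell in mir-11 KO relative to Canton S (log2 difference -2.07, SE 0.16, adjusted p = 0.002 by edgeR), a 4.2-fold difference, and this call held under all 17 alternative settings, with an adjusted p of at most 0.0347 by edgeR or DESeq2. It also fell in RMCE-1 relative to Canton S (log2 difference -0.87, SE 0.15, adjusted p = 0.0239 by edgeR), while RMCE-2 against Canton S was not called (0.48, SE 0.15, adjusted p = 0.137 by edgeR).

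Against mir-11 KO, Cpr97Ea rose in RMCE-1 (log2 difference 1.2, SE 0.16, adjusted p = 0.0463 by edgeR) and in RMCE-2 (2.55, SE 0.16, adjusted p = 0.00259 by edgeR). It also rose in RMCE-2 relative to RMCE-1 (1.35, SE 0.15, adjusted p = 0.0169 by edgeR). Fits of only the 4 libraries compared lost the calls of RMCE-1 against Canton S, RMCE-1 against mir-11 KO and RMCE-2 against RMCE-1. The rise in RMCE-1 against mir-11 KO was also lost with the replicate number in the fit and at a summed count of at least 50. The fall in RMCE-1 against Canton S was lost without any single library but RMCE-2 replicate 1 (edgeR adjusted p up to 0.114 over all settings), and the rise in RMCE-1 against mir-11 KO without any single library but RMCE-1 replicate 1 (up to 0.46). The rise in RMCE-2 was lost against mir-11 KO without either mir-11 KO library (up to 0.0584), and against RMCE-1 without any mir-11 KO or RMCE-2 library (up to 0.111).

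Its neighbour Cpr97Eb (27089704 to 27091130, same strand) ran the other way between mir-11 KO and Canton S. Cpr97Eb had 59 and 23 reads in mir-11 KO, 24 and 25 in RMCE-1, 15 and 37 for the RMCE-2 libraries, and 8 and 7 for Canton S. Its level was 3.16 and 1.37 CPM for mir-11 KO, 1.54 and 2.14 for RMCE-1, 1.15 and 2.06 for RMCE-2, and 0.395 and 0.376 for Canton S, with Canton S below all other libraries. The rise in mir-11 KO relative to Canton S (log2 difference 2.53, SE 0.55, adjusted p = 0.0495 by edgeR) was lost without any single library of the 8 (adjusted p up to 0.301) and with DESeq2's size factors in edgeR (0.0518). The rise in mir-11 KO was also lost with the replicate number in the fit, without the filter on low counts and at a summed count of at least 50. Against Canton S, neither RMCE-1 (2.23, SE 0.55, adjusted p = 0.0658 by edgeR) nor RMCE-2 (2.05, SE 0.55, adjusted p = 0.1) was called.

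Cpr66D stood at 11.5 and 11.3 CPM for mir-11 KO, 18.5 and 14.1 for RMCE-1, 30 and 24.3 for RMCE-2, and 19.5 and 23.8 for Canton S, lowest in mir-11 KO. It fell in mir-11 KO relative to Canton S (log2 difference -0.93, SE 0.17, adjusted p = 0.0308 by edgeR) and rose in RMCE-2 relative to mir-11 KO (1.25, SE 0.17, adjusted p = 0.0415 by edgeR). The fall was lost without any mir-11 KO or Canton S library (edgeR adjusted p up to 0.237), and the rise without any mir-11 KO, RMCE-2 or Canton S library (up to 0.348). Both calls were also lost with the replicate number in the fit, and the rise at a summed count of at least 50. RMCE-2 against RMCE-1 was called higher by DESeq2 (adjusted p = 0.0463) and not by edgeR (0.0956).

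Cpr67B stood at 20.5 and 19.4 CPM for mir-11 KO, 31.3 and 23.9 for RMCE-1, 25.4 and 21.3 for RMCE-2, and 32.4 and 44.1 for Canton S. Canton S was the highest stock and mir-11 KO the lowest, and mir-11 KO fell relative to Canton S (log2 difference -0.94, SE 0.19, adjusted p = 0.0425 by edgeR). Leaving out Canton S replicate 2 or any mir-11 KO or RMCE-2 library ended the call (edgeR adjusted p up to 0.297). Adding the replicate number to the fit ended the call too. RMCE-2 against Canton S was called lower by DESeq2 (adjusted p = 0.0342) and not by edgeR (0.0991).

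Cpr51A stood at 49.1 and 48.7 CPM for mir-11 KO, 59.5 and 41.1 for RMCE-1, 57.5 and 46.1 for RMCE-2, and 24.2 and 28.9 for Canton S. Every library of the other 3 stocks lay above both of Canton S. Its level in RMCE-1 was higher than in Canton S (log2 difference 0.92, SE 0.20, adjusted p = 0.0489 by edgeR), while mir-11 KO (0.88, SE 0.20, adjusted p = 0.0617 by edgeR) and RMCE-2 (0.96, SE 0.20, adjusted p = 0.0578) missed the threshold. DESeq2 called it higher in these as well (adjusted p = 0.00185 and 0.00038), and so did edgeR with library totals alone (adjusted p = 0.0425 and 0.0404). The call in RMCE-1 was lost with only the 4 libraries compared and with the replicate number in the fit. It was also lost without the filter on low counts and at a summed count of at least 50. Leaving out any single library other than RMCE-1 replicate 2 ended the call in RMCE-1 (edgeR adjusted p up to 0.221).

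Lcp65Af was the one Lcp gene called by edgeR. It stood at 1.55 and 1.49 CPM for mir-11 KO, 1.99 and 1.2 for RMCE-1, 0.69 and 0.502 for RMCE-2, and 3.65 and 6.99 for Canton S. Canton S lay above all other libraries and RMCE-2 below them. It fell in RMCE-2 relative to Canton S (log2 difference -3.16, SE 0.45, adjusted p = 0.0138 by edgeR), while mir-11 KO (-1.80, SE 0.41, adjusted p = 0.0562 by edgeR) and RMCE-1 (-1.72, SE 0.41, adjusted p = 0.0593) missed the threshold. DESeq2 called it lower in these as well (adjusted p = 0.0335 and 0.0481), as did edgeR with library totals alone in RMCE-1 (adjusted p = 0.0453). With only the 4 libraries compared, the call in RMCE-2 did not hold. The call was lost without any mir-11 KO or RMCE-2 library (edgeR adjusted p up to 0.0966), and it rests on 9 reads in each RMCE-2 library.

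**Figure D4:**
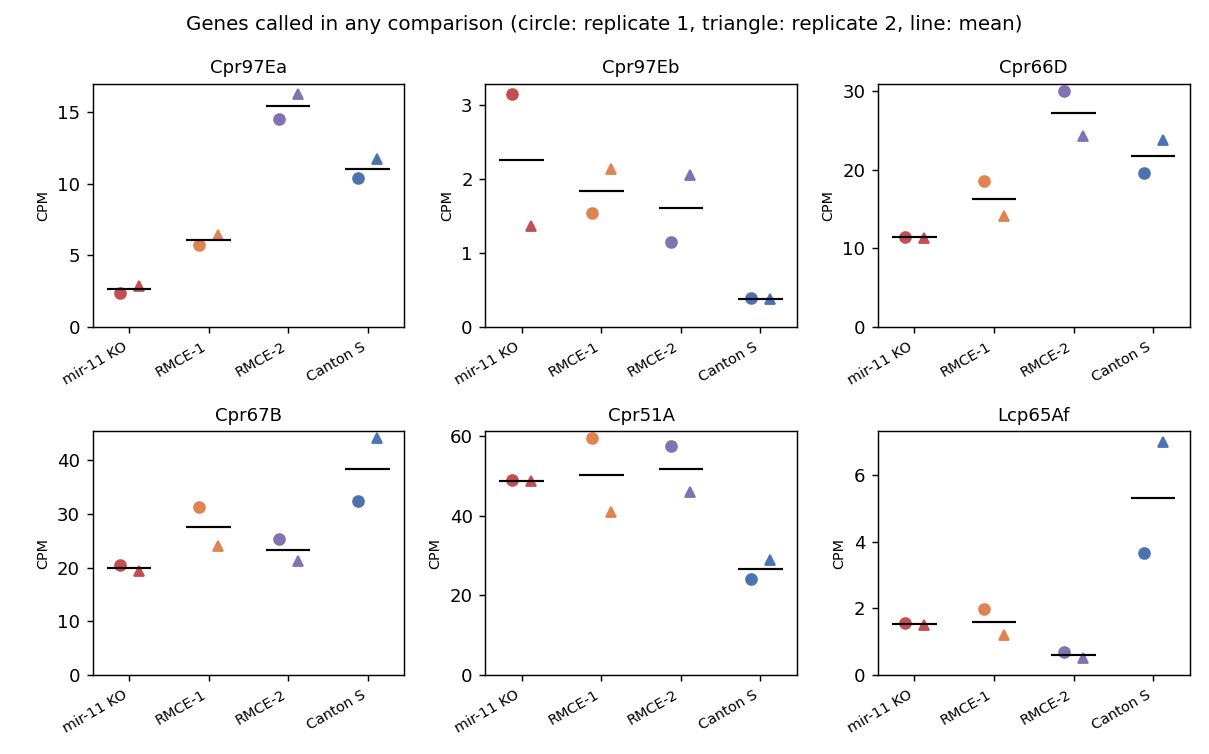
Points give the level (CPM, axes from 0 that differ between panels) of the 6 members called in any comparison, circles for replicate 1 and triangles for replicate 2, with a line at each stock's mean. Cpr97Ea shows 4 stocks without overlap, from 2.41 CPM in mir-11 KO to 16.3 CPM in RMCE-2, Cpr97Eb and Cpr51A are lowest in Canton S, and Lcp65Af is highest there.

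The most abundant member, Cpr49Ac (2R, 12386666 to 12390057), stood at 159 and 253 CPM for mir-11 KO, 331 and 317 for RMCE-1, 399.8 and 664 for RMCE-2, and 398 and 487 for Canton S. Both mir-11 KO libraries were the lowest. The difference of mir-11 KO from Canton S was not called by edgeR (log2 difference -1.10, SE 0.32, adjusted p = 0.128 by edgeR) and was by DESeq2 (adjusted p = 0.033). Its neighbour Cpr49Ag stood at 0.321 and 0.713 CPM for mir-11 KO, 5 and 2.83 for RMCE-1, 5.6 and 9.65 for RMCE-2, and 2.47 and 9.89 for Canton S, again lowest in mir-11 KO (log2 difference -3.57, SE 0.84, adjusted p = 0.0725 by edgeR, DESeq2 adjusted p = 0.00017). Cpr49Ah, in the same run of genes, was at 2.84 and 2.08 CPM in mir-11 KO and 0.641 and 1.24 CPM in Canton S, a difference with the opposite sign that was not called (log2 difference 1.39, SE 0.63, adjusted p = 0.266 by edgeR). Against mir-11 KO, DESeq2 also called Cpr49Ac higher in RMCE-2 (adjusted p = 0.00915) and Cpr49Ag higher in RMCE-1 and RMCE-2 (adjusted p = 0.0175 and 8.04e-05), none of which edgeR called (0.178, 0.392 and 0.144).

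Pcp stood at 54.5 and 60.2 CPM for mir-11 KO, 98.8 and 49.6 for RMCE-1, 79.7 and 114 for RMCE-2, and 120.4 and 127 for Canton S. Canton S was above all other libraries. Between mir-11 KO and Canton S it was not called by edgeR (log2 difference -1.11, SE 0.34, adjusted p = 0.151 by edgeR) and was by DESeq2 (adjusted p = 0.0023). Reads of Pcp and of unspliced Gart transcripts may not be separated here, because how the counting treated strand is not stated.

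Among the Lcp genes, 8 of the 9 tested had a negative log2 difference in mir-11 KO against Canton S, with a median of -2.82 beside 0.01 for all genes tested. None was called by edgeR, where 1 had an unadjusted p under 0.05. Of these 9, DESeq2 called Lcp65Af, and it also called Lcp3, which edgeR's filter left out and which rests on the 278 reads of Canton S replicate 2. That median rests on Canton S replicate 2. Without that library it was 0.30, with 5 positive and 4 negative. Both RMCE medians against Canton S also turned, -1.07 and -1.11 with that library and 1.79 and 1.75 without it. Lcp4, for example, was not called in mir-11 KO (log2 difference -4.05, SE 1.99, adjusted p = 0.339 by edgeR). Lcp65Ac, the most abundant gene of its run, was at 65.6 and 35.8 CPM for mir-11 KO, 30.2 and 21.3 for RMCE-1, 34.4 and 36.9 for RMCE-2, and 51.6 and 60.9 for Canton S. It was not called by edgeR, and DESeq2 called it lower in RMCE-1 than in Canton S (adjusted p = 0.00287).

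The 65A run on arm 3L spans 6130386 to 6161589 (BDGP6.54) and holds 18 of the named genes, of which 12 were members. Levels along it did not move together. Lcp65Ab1 and Lcp65Ab2 differed 165-fold and 168-fold between their lowest and highest libraries, Lcp65Ac beside them 3.08-fold, and Lcp65Ad 3.32-fold. Lcp65Ad stood at 1.93 and 1.43 CPM in mir-11 KO and 0.74 and 1.18 CPM in Canton S, without a call by either tool. Cpr65Ay reached 4.22 CPM in RMCE-2 replicate 1, where the other libraries lay at 0.752 to 2.57 CPM. In all, 50 of the 70 members lay within 20000 bases of another gene of these names, in 15 runs. A run of 12 Twdl genes on 3R, from 26619118 to 26641054 with TwdlD among them, had no member.

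**Figure D5:**
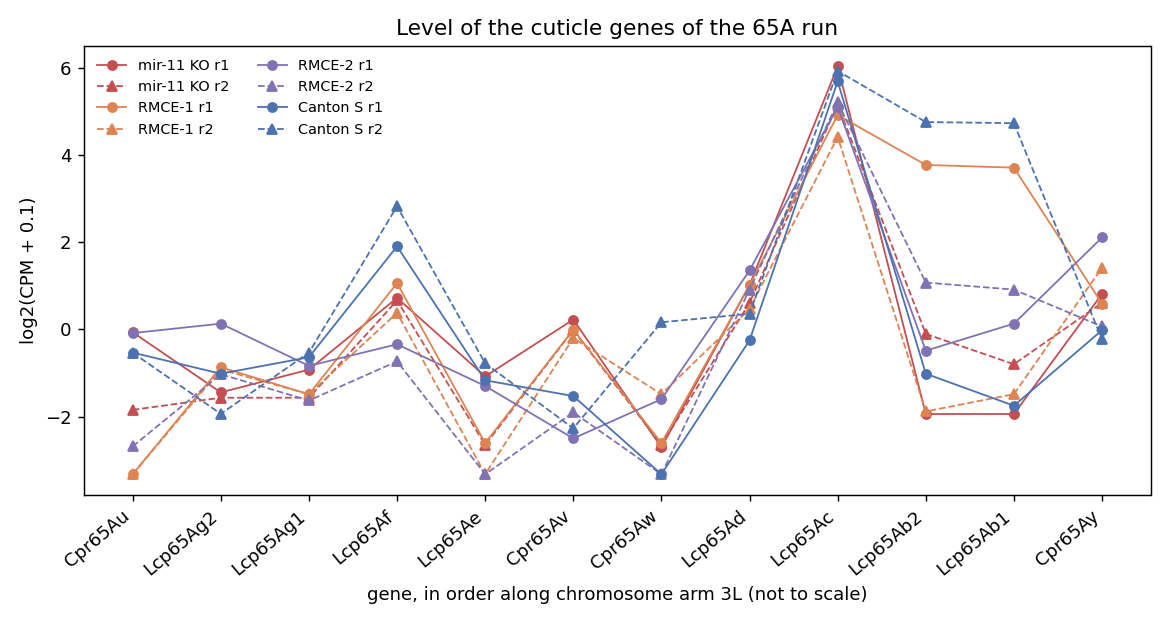
Lines join the levels, as log2(CPM + 0.1), of the 12 members of the 65A run in each library, in their order along arm 3L and not to scale. All libraries peak at Lcp65Ac, and at Lcp65Ab2 and Lcp65Ab1 the lines of RMCE-1 replicate 1 and Canton S replicate 2 lie above the rest.

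None of the other Cpr genes was called by edgeR. Cpr12A ranged from 61.6 to 114 CPM, Cpr78E from 17 to 42.1 CPM, Cpr11B from 12.4 to 25 CPM, Cpr47Eb from 11.2 to 21.6 CPM and Cpr56F from 9.43 to 18.5 CPM. Cpr78Ca stood at 2.78 and 1.31 CPM in mir-11 KO and 6.36 and 8.17 CPM in Canton S (log2 difference -1.82, SE 0.43, adjusted p = 0.0638 by edgeR), a difference that DESeq2 called (adjusted p = 0.0104). Cpr100A had 15.5 and 3.79 CPM in RMCE-2 and 1.97 and 2.53 CPM in Canton S, with 1 RMCE-2 library far above the other, and was called by DESeq2 (adjusted p = 0.0263). Cpr72Ea was at 5.19 and 5.47 CPM in mir-11 KO and 1.87 and 0.645 CPM in Canton S, without a call (edgeR adjusted p = 0.163). Cpr92A, Cpr31A, Cpr11A, Cpr65Ec, Cpr67Fb and Cpr60D averaged 1.09 to 3.81 CPM over the 8 libraries, and Cpr47Ee, Cpr67Fa2, Cpr62Bc and Cpr64Ac 0.636 to 0.91 CPM. Cpr65Ec was lowest in Canton S, at 0.888 and 0.967 CPM against 1.82 to 3.07 CPM in the other libraries. Against Canton S it was not called in mir-11 KO, RMCE-1 or RMCE-2 (edgeR adjusted p = 0.0741, 0.0842 and 0.0552). Cpr11A was highest in RMCE-1 replicate 2, at 6.26 CPM, against 0.444 to 4.6 CPM elsewhere. The 34 tested Cpr genes had a median log2 difference from Canton S of 0.01 in mir-11 KO, 0.02 in RMCE-1 and 0.16 in RMCE-2, beside 0.01, 0.01 and 0.00 for all genes tested. These medians moved with the Canton S library kept, to 0.23, 0.55 and 0.45 without replicate 2, where 22 of the 34 were positive in each, and to -0.16, -0.09 and 0.15 without replicate 1.

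TwdlE made up 49.1% of the Twdl transcript over all libraries, and 19.8% in Canton S replicate 1 to 78.4% in RMCE-1 replicate 2. It stood at 7.76 and 11 CPM for mir-11 KO, 13.6 and 52.3 for RMCE-1, 20.9 and 12 for RMCE-2, and 5.03 and 8.49 for Canton S. Its highest value lay in RMCE-1 replicate 2, the library with the most fat body and salivary gland transcript, whose part in it was not tested. TwdlE shares exon bases with lectin-28C on the other strand, so their reads may not be separated. The difference of RMCE-1 from Canton S was not called by edgeR (log2 difference 2.28, SE 0.73, adjusted p = 0.152 by edgeR) and was by DESeq2 (adjusted p = 0.00169). Without TwdlE the Twdl genes summed to 13.4 to 21.8 CPM. TwdlT ranged from 3.26 to 9.41 CPM, and Twdlalpha, TwdlX, TwdlY and TwdlZ, which form a run on the X inside the gene goe, averaged 1.7 to 4.27 CPM. No Twdl gene was called by edgeR in any of the 6 comparisons, where 0 to 2 of the 6 tested had an unadjusted p under 0.05, and DESeq2 called only TwdlE, in RMCE-1 against Canton S. Ccp84Aa and Ccp84Ab averaged 0.428 and 0.433 CPM and were called by neither tool, with no unadjusted p under 0.05 by edgeR.

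Other genes of cuticle building were counted as lists. Of 20 tested genes for chitin synthesis and assembly, 2 were higher (2.37% of all genes tested) and 1 was lower (2.39%) in mir-11 KO than in Canton S, and 3 were higher in RMCE-1 (2.85%). In RMCE-2 1 was higher, where 221 of all 11068 genes tested were higher and 3.6% were called in both directions. The gene obst-B, which encodes a chitin-binding protein, was higher in all 3, at 94 ± 7.19 CPM in mir-11 KO, 81.8 ± 9.74 CPM in RMCE-1, 100.3 ± 9.59 CPM in RMCE-2 and 40.3 ± 9.61 CPM in Canton S (mean ± SD, n = 2; edgeR adjusted p = 0.016, 0.0265 and 0.0138). The chitinase gene Cht5 fell to 11 ± 1.97 CPM in mir-11 KO, against 29 ± 3.47 CPM in Canton S (SD, n = 2; log2 difference -1.41, SE 0.14, adjusted p = 0.004 by edgeR). It was higher in RMCE-1 (1.40, SE 0.14, adjusted p = 0.0137 by edgeR) and RMCE-2 (1.24, SE 0.14, adjusted p = 0.0249) than in mir-11 KO, the single call of the list in each of those comparisons. There 0.208% and 0.334% of all genes tested were higher. The chitin deacetylase gene Cda4 was higher in mir-11 KO (0.53, SE 0.11, adjusted p = 0.0493 by edgeR) and RMCE-1 (0.65, SE 0.11, adjusted p = 0.023) than in Canton S, and obst-A was higher in RMCE-1 (0.80, SE 0.17, adjusted p = 0.0469). The chitin synthase gene kkv ranged from 241 to 353 CPM and was not called.

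Among the 6 cuticle tanning genes, 2 were lower in mir-11 KO than in Canton S (2.39% of all genes tested), 2 in RMCE-1 (3.22%) and 1 in RMCE-2 (1.6%). The gene t, whose product frees dopamine from its beta-alanine conjugate, stood at 7.43 ± 0.764 CPM in mir-11 KO, 5.91 ± 0.349 CPM in RMCE-1, 8.89 ± 0.113 CPM in RMCE-2 and 19.9 ± 0.0364 CPM in Canton S (SD, n = 2; edgeR adjusted p = 0.0026, 0.00144 and 0.00482). The gene b, needed to make beta-alanine, fell in mir-11 KO (-1.24, SE 0.11, adjusted p = 0.0026 by edgeR) and RMCE-1 (-0.75, SE 0.10, adjusted p = 0.0118) relative to Canton S, and rose in RMCE-2 relative to mir-11 KO (0.85, SE 0.11, adjusted p = 0.0302). In the last of these comparisons 0.334% of all genes were higher. Of 8 zona pellucida matrix genes, which encode proteins of the apical matrix, neo fell in mir-11 KO (-0.74, SE 0.07, adjusted p = 0.00351 by edgeR) and RMCE-1 (-0.75, SE 0.07, adjusted p = 0.00333) relative to Canton S, and was higher in RMCE-2 than in mir-11 KO (0.57, SE 0.07, adjusted p = 0.0302) and RMCE-1 (0.58, SE 0.07, adjusted p = 0.0179). In the same order, 2.39% and 3.22% of all genes were lower, and 0.334% and 0.94% were higher. None of the 5 tested cuticle protein genes with other names, Vajk2 and Vajk3 included, was called by edgeR in any comparison, where 0 to 2 of them had an unadjusted p under 0.05.

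Of 17 regulators of moulting and cuticle genes, 5 were lower in mir-11 KO than in Canton S (2.39% of all genes tested), 5 in RMCE-1 (3.22%) and none in RMCE-2 (1.6%), where 3 had an unadjusted p under 0.05. In RMCE-2, 2 were higher than in mir-11 KO (0.334% of all genes) and 2 were higher than in RMCE-1 (0.94%). Hr3, an ecdysone-induced nuclear receptor gene, stood at 31.8 and 22 CPM for mir-11 KO, 49.8 and 38.2 for RMCE-1, 118 and 128 for RMCE-2, and 96.8 and 113 for Canton S. Hr4, also such a receptor gene, fell in mir-11 KO (-1.35, SE 0.18, adjusted p = 0.012 by edgeR) and RMCE-1 (-1.25, SE 0.18, adjusted p = 0.0148) relative to Canton S. Eip78C and the ecdysone-inducible gene ImpE1 fell in both as well, by log2 differences of -1.22 and -0.91 in mir-11 KO (edgeR adjusted p = 0.0234 and 0.00498) and -1.09 and -0.64 in RMCE-1 (edgeR adjusted p = 0.0298 and 0.0151). The levels of ftz-f1, a receptor gene of the same hormone response, ran from 23 to 48 CPM and were not called.

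Markers of tissues were called as follows. The tracheal marker trh fell to 9.8 ± 1.5 CPM in mir-11 KO and 12 ± 0.184 CPM in RMCE-1, against 20.8 ± 1.95 CPM in Canton S (SD, n = 2; edgeR adjusted p = 0.0124 and 0.0332), and uif fell in RMCE-1 (-0.56, SE 0.12, adjusted p = 0.0412). Among all genes tested, 2.39% were lower in mir-11 KO and 3.22% in RMCE-1. Of the 4 tracheal markers matched, ppk11 and Nach were at or below 0.307 CPM in every library. Of the 14 disc markers, ct was lower in mir-11 KO and RMCE-1 than in Canton S (2.39% and 3.22% of all genes tested were lower), and higher in RMCE-2 than in RMCE-1 (0.94%). In mir-11 KO against Canton S, TpnC73F of 12 muscle markers was lower, and of 8 hemocyte markers NimC1 was higher and Pxn lower, where 2.37% of all genes were higher and 2.39% lower. In RMCE-1, Mlp60A of the 12 muscle markers was higher than in Canton S (2.85% of all genes tested). Of the 8 hemocyte markers, Pxn, eater and Sr-CI were lower in RMCE-2 than in Canton S (1.6% of all genes tested). NimC1 went the other way without a call, at 8.44 and 8.42 CPM in RMCE-2 against 2.47 and 4.51 CPM in Canton S. Pxn was also lower in RMCE-2 than in RMCE-1, where 1.68% of all genes were called in both directions. No fat body, salivary gland or gut marker was called by edgeR in any comparison, where up to 3 of a list had an unadjusted p under 0.05. The part of these markers in the cuticle gene levels was not tested.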

How the data were processed

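Per the labels' protocols, Trizol RNA was freed of ribosomal RNA and read from directional libraries in single reads of 50 bases. The authors deposited counts per gene without normalization, for 15682 FlyBase identifiers, of which 15002 matched a symbol. The submitters' processing notes name CASAVA 1.8.2, FastQC, TopHat2, Subread and featureCounts. No source used here names the build, annotation or strand setting of the counting, so reads of overlapping, antisense and near-identical genes may not be separated. Positions and exon lengths come from Ensembl 115 (BDGP6.54), which may not be the build of the counting.

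All 8 libraries entered 1 edgeR 4.0.16 fit (R 4.3.3) with TMM scaling, filterByExpr (11068 genes kept, 4614 left out), a coefficient per stock, 4 residual degrees of freedom and a robust quasi-likelihood test. P-values were Benjamini-Hochberg adjusted across every gene that passed. CPM are counts over the TMM-scaled total. The fit was tested on simulated data for the comparison of RMCE-1 with Canton S only, where the share of false calls was above the nominal rate. P-values measure the spread between these samples, which may be technical. Within each stock the libraries differed beyond sampling noise (chi-square per degree of freedom 9.5 to 50). Named are called members, members with a mean of at least 1 CPM in any stock, the 2 highest per family, those next to the threshold of 20 reads, and per gene list up to 4 called genes or the 2 most abundant. Genes annotated as pseudogenes are named as well. The 12 lists held 131 entries, of which 123 matched. Members and lists were chosen with earlier results of these data known. Cpr76Bc, Cpr65Aw, kkv, ftz-f1, ppk11 and Nach fall outside this rule and were chosen after their values were seen. Alternatives were DESeq2 1.42.0, other scalings and filters, a replicate block and fits with libraries left out.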

Additional observations from a re-analysis of the deposited data

How the results depend on the processing

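Each of the 11 calls was recomputed under 17 settings. None of the 187 values changed sign, 104 stayed under the threshold and 83 did not. Counts of called members are given in the order mir-11 KO, RMCE-1 and RMCE-2 each with Canton S, RMCE-1 and RMCE-2 each with mir-11 KO, and RMCE-2 with RMCE-1, where the report has 4, 2, 1, 1, 2 and 1. DESeq2 gave 11, 6, 5, 2, 4 and 2. Fits of only the 4 libraries compared gave 11, 0, 0, 0, 3 and 0. With the replicate block they were 1, 1, 1, 0, 1 and 1. The labels state no pairing of samples by replicate number. The correlation of replicate differences between stocks ran from -0.354 to 0.324, highest for mir-11 KO with Canton S. These values do not settle whether samples were paired, since any other difference between replicates also enters them. With a summed count of at least 50 they were 3, 1, 1, 0, 1 and 1, with no filter 3, 1, 1, 1, 2 and 1, with library totals alone 5, 3, 2, 1, 2 and 1, and with a fold change of at least 2 they were 2, 0, 1, 1, 2 and 1. Leaving out 1 library at a time gave ranges of 1 to 6, 0 to 3, 0 to 2, 0 to 1, 0 to 2 and 0 to 1. A joint leave-out of the first Canton S and the second RMCE-1 library gave 10, 2, 6, 1, 3 and 0. A joint leave-out of the second library of both, added after the data were seen, gave 3, 2, 2, 0, 3 and 0. A stock reduced to 1 library is assumed to vary like the others. A summed count of 10 or 50 in place of 20 would give 78 or 56 members. The cause of these shifts was not tested. Depth limits the 30 members under 1 CPM, where a few reads decide the level.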
